A study of Homo sapiens with 9 samples.

Results

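Contacts of the HS3ST1 promoter were measured by Capture-C, which digests crosslinked chromatin with the restriction enzyme DpnII, ligates ends that lie close together in the nucleus and enriches the ligation products of a chosen promoter, the viewpoint. The regions followed here are the 2241 DpnII fragments listed on chromosome 4 within 500 kb of the HS3ST1 start site (hg38 position 11429564, minus strand), out of 47189 fragments within 500 kb of the 20 captured promoters. The gene itself spans chr4:11393150-11429564 (hg38). The fragments were chosen by position alone, and 11 of them had no signal in any library. Each value is a signal that the authors scaled from the number of ligation events between a fragment and the viewpoint, and it is given per kb of sequence unless stated otherwise.

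HS3ST1 encodes heparan sulfate glucosamine 3-O-sulfotransferase 1, a Golgi enzyme that adds the rare 3-O-sulfate to heparan sulfate chains and so completes the pentasaccharide to which antithrombin binds. Mediator is the multi-subunit complex that passes signals from enhancer-bound factors to RNA polymerase II, and MED14 is the subunit that holds its modules together. Cohesin, of which SMC1A is a subunit, extrudes chromatin loops, and BET proteins bind acetylated histones at active enhancers and promoters.

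All libraries were from HCT-116 MED14-dTAG cells, a human colorectal carcinoma line in which MED14 carries a degradation tag, so the controls carry the tag as well. The 9 libraries fell into 3 groups of 3, namely cells given 0.5 µM dTAG ligand for 2 h to remove MED14 (dTAG), cells given the same ligand together with 1 µM of the BET inhibitor I-BET for 90 min (dTAG+I-BET), and cells given the solvent DMSO. The study describes the replicates as biologically independent, but the column names mark them with an abbreviation that is not explained, and p-values measure the spread between these samples. The MED14 protein level itself was not measured by these libraries. No group received I-BET without the dTAG ligand, and the comparison of dTAG+I-BET with DMSO therefore covers both agents at once.

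The sequence of the annotated promoter is shown. The fragment that carried the capture probe is not given in the sources used here, so this sequence need not be the captured one. RefSeq places a promoter of HS3ST1 at chr4:11428845-11429144 (GRCh38.p14, minus strand), inside the gene and without the start site used for distances, and it holds 1 DpnII site, the GATC in capitals. GATC occurs in 41.7% of the 35116 RefSeq promoters of this length.

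HS3ST1 promoter: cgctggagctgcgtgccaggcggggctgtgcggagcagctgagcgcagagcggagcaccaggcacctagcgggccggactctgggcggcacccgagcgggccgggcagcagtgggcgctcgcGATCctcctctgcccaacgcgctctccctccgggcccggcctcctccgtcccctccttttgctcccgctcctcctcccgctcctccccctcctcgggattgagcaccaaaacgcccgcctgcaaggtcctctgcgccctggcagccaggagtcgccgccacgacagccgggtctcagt

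Of the DpnII fragments of hg38 around the promoter, the one that holds the start site (1494 bases, chr4:11429023-11430516) and its 2 neighbors (551 and 359 bases) were not listed in the table, so the contacts described here start outside them. All 2241 listed fragments were flanked by GATC on both sides in hg38, and their median length was 307 bases.

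Sites at which the study found less SMC1A after MED14 depletion, by CUT&Tag in the same cells, gave positions for the contacts that were set independently of the Capture-C values. They are called cohesin-lost sites here, and 6 of them lay within 500 kb of the HS3ST1 start site, all upstream of it, at 85.5 kb (site A, chr4:11514901-11515301), 160.3 kb (site B), 203.1 kb (site C), 221.4 kb (site D, chr4:11650773-11651173), 269.5 kb (site E) and 318.9 kb (site F). Sites A and B lay between annotated genes, sites C to F lay in introns of the long noncoding RNA gene ENSG00000249631, and site F also lay in an intron of LINC02360. The letters TGANTCA (N is any base), a loose form of the binding sequence of the AP-1 (JUN and FOS) factors, were searched on both strands. They occurred in 3 of the 6 sites, against 63.9% of all 881 cohesin-lost sites of the study and 7.71% of the RefSeq promoters. Sites were searched over 401 bases and promoters over 300, so the share of promoters is not for an equal length. The central bases of the 3 sites with TGANTCA, and of site C, the site with the second highest signal, are printed on the plus strand of hg38 with TGANTCA in capitals.

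site B, chr4:11589812-11590012: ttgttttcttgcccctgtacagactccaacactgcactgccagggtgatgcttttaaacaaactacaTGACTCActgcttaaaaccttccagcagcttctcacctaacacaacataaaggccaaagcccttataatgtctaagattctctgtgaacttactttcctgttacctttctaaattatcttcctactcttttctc
site C, chr4:11632531-11632731: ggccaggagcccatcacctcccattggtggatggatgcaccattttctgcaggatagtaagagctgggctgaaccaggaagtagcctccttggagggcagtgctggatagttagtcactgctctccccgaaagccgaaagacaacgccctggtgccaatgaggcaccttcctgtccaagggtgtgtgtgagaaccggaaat
site E, chr4:11698917-11699117: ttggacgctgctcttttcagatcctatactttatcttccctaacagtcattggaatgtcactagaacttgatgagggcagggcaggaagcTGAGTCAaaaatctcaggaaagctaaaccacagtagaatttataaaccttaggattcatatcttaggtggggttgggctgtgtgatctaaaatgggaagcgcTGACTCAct
site F, chr4:11748379-11748579: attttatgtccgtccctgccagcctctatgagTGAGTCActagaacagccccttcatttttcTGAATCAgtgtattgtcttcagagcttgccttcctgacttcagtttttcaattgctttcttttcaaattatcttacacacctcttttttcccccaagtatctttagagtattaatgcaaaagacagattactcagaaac

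The HS3ST1 viewpoint held 34844 to 59217 interactions on chromosome 4 per library, beside a trans share of 29.9% to 37.7% (ligations to other chromosomes). Across the 98 bins of 10 kb between 10 and 500 kb, the correlation within groups was 0.984 to 0.993 in the 9 possible pairs of libraries (Pearson, with bins as points, which are not independent replicates). Chi-square per bin between replicates was 1.25 to 2.27, above the value of 1 that counting noise alone would give. The library dTAG 3 stood apart: it had the highest trans share, and 33.1% of its chromosome 4 signal lay at 10 to 500 kb, against 44.1% and 45.1% in dTAG 1 and dTAG 2, 41.9% to 42.5% in the dTAG+I-BET libraries and 40.8% to 44.8% in the DMSO libraries. The log2 differences of bands, windows, sites, the gene body and named bins between dTAG and DMSO are therefore also given without it, and the counts of bins by sign include it.

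At 10 to 500 kb, 59.2% to 66.6% of the HS3ST1 signal lay upstream, the side that holds the 6 sites. That upstream signal was 20.1% to 28.5% of all signal on chromosome 4. Between 80 and 320 kb, the upstream signal was 415 to 579 per kb over the 9 libraries and the downstream signal 208 to 302 per kb, a ratio of 1.68 to 2.61. Farther upstream the signal was 260 to 359 per kb at 310 to 390 kb and 123 to 161 per kb at 390 to 500 kb. Between 320 and 500 kb both sides were near each other (ratio 0.86 to 1.23). Within that range the upstream bins at 320 to 330 kb and 330 to 340 kb, just past site F, still averaged 376 and 372 per kb over the 9 libraries, beside 178 and 180 per kb in the downstream bins at the same distances. The upstream bin at 360 to 370 kb had 143 per kb.

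Set against the mean of the other 19 viewpoints at the same distance and side, 4 of the 5 HS3ST1 bins with the highest ratio were upstream. The bin at 270 to 280 kb upstream, next to site E, averaged 625 per kb over the 9 libraries (488 to 762), which was 2.07 times the mean of the other viewpoints. The bin at 290 to 300 kb followed with 663 per kb (1.98 times), and the bin at 260 to 270 kb, which holds site E, had 532 per kb (1.85 times). The bin at 190 to 200 kb, at the start of ENSG00000249631, had 687 per kb (1.72 times). On the downstream side, the bin at 480 to 490 kb had 268 per kb (1.84 times). These ratios describe the landscape of all libraries together and were not tested.

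**Figure D1:**
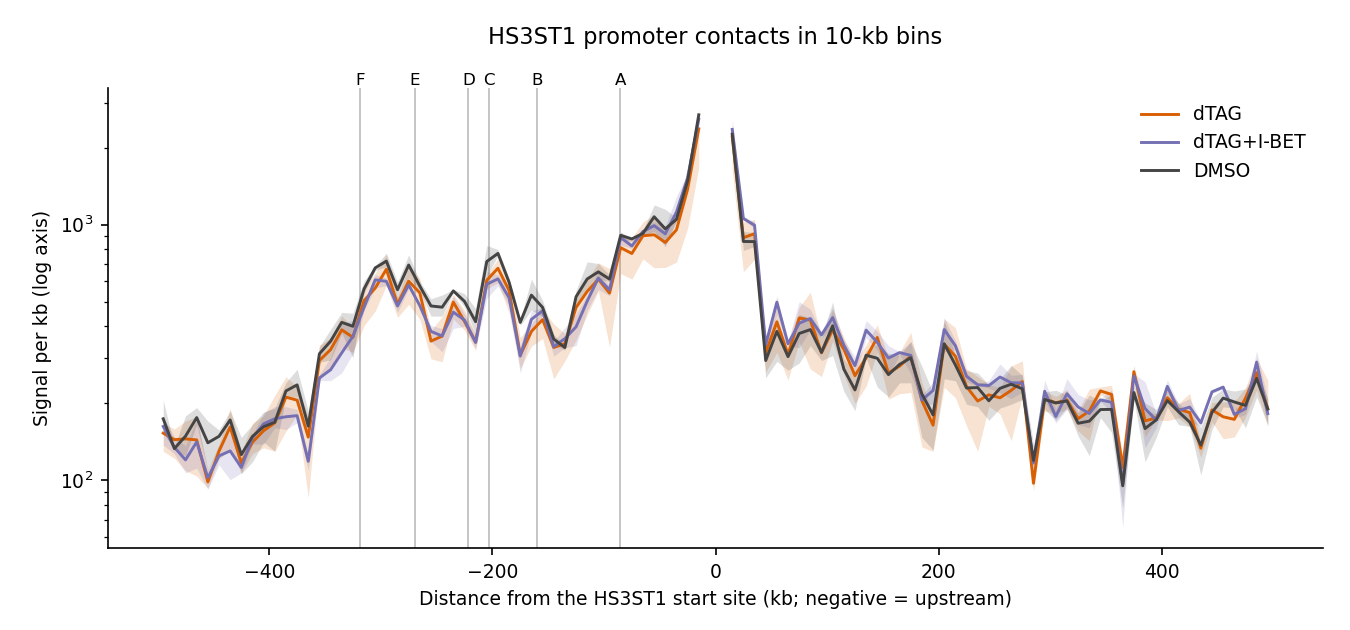
HS3ST1 promoter contacts in 10-kb bins from 10 to 500 kb on both sides of the start site, as signal per kb on a log axis against distance in kb (negative is upstream). Lines are means of the 3 dTAG, 3 dTAG+I-BET and 3 DMSO libraries, shading spans the lowest to the highest library, and letters mark the 6 cohesin-lost sites; the upstream side carries 415 to 579 per kb between 80 and 320 kb, and the downstream side 208 to 302 per kb.

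Whether MED14 depletion shifted HS3ST1 contacts was asked first with the balance of both sides, because a ratio within a library does not depend on how that library was scaled. Of the signal at 10 to 500 kb, 61.3%, 60.4% and 60.6% lay upstream in the dTAG libraries and 59.2%, 59.3% and 59.2% in the dTAG+I-BET libraries, against 63.7%, 62.6% and 66.6% in the DMSO libraries. All 3 dTAG and all 3 dTAG+I-BET libraries were thus below the lowest DMSO library, and the DMSO libraries were the most variable group.

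The upstream to downstream ratio averaged 1.55 in dTAG and 1.81 in DMSO, and it fell by 14% with MED14 depletion (log2 difference -0.22, SE 0.06, limma over 20 viewpoints, adjusted p = 0.0216). It averaged 1.45 in dTAG+I-BET and fell by 19.5% relative to DMSO (log2 difference -0.31, SE 0.06, limma, adjusted p = 0.00336). Between dTAG+I-BET and dTAG the log2 difference was -0.09 (95% interval -0.24 to 0.05, limma, adjusted p = 0.588). A further shift with I-BET thus did not pass the test, although all 3 dTAG+I-BET libraries lay below all 3 dTAG libraries. The fit shares its estimate of the spread over all groups, and the SD of the ratio was 0.03 in dTAG, 0.004 in dTAG+I-BET and 0.167 in DMSO. The SE of this comparison therefore also carries the spread of DMSO, which is not part of it. An exact permutation test over libraries gave p = 0.1 in each of the 3 comparisons (two-sided), the smallest value that 3 against 3 allows. The difference between dTAG and DMSO was -0.21 without dTAG 3 (adjusted p = 0.0454) and also -0.21 without dTAG 2, where it no longer passed (adjusted p = 0.0657). Without DMSO 3, the library with the highest ratio (1.99), the difference was smaller, at -0.145, and still passed (limma adjusted p = 0.0178).

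The same balance passed the test as lower at 10 of the 20 promoters with dTAG (50%) and at 9 of 20 with dTAG+I-BET (45.0%), with HS3ST1 counted among them. A call in either direction was made at 10 of 20 promoters with dTAG+I-BET and at 0.00% between dTAG+I-BET and dTAG, and libraries did not overlap at 10 of 20 promoters with dTAG, 65.0% with dTAG+I-BET and 25% between both. HS3ST1 had the eighth lowest difference with dTAG and the seventh lowest with dTAG+I-BET. In each library, the log2 ratio of HS3ST1 was also set against the mean of the other 19 viewpoints: this excess averaged 0.56 ± 0.03 in dTAG, 0.45 ± 0.01 in dTAG+I-BET and 0.53 ± 0.18 in DMSO (SD, n = 3 each). The excess differed between dTAG and DMSO by 0.03 and between dTAG+I-BET and DMSO by -0.08 (two-sided exact permutation test, p = 1 for both). Between dTAG+I-BET and dTAG it differed by -0.11, with all 3 dTAG+I-BET libraries below all 3 dTAG libraries (p = 0.1 in the same exact test, the smallest that 3 against 3 allows). In the comparisons with DMSO the libraries overlapped. The 2 comparisons with DMSO share their DMSO libraries.

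**Figure D2:**
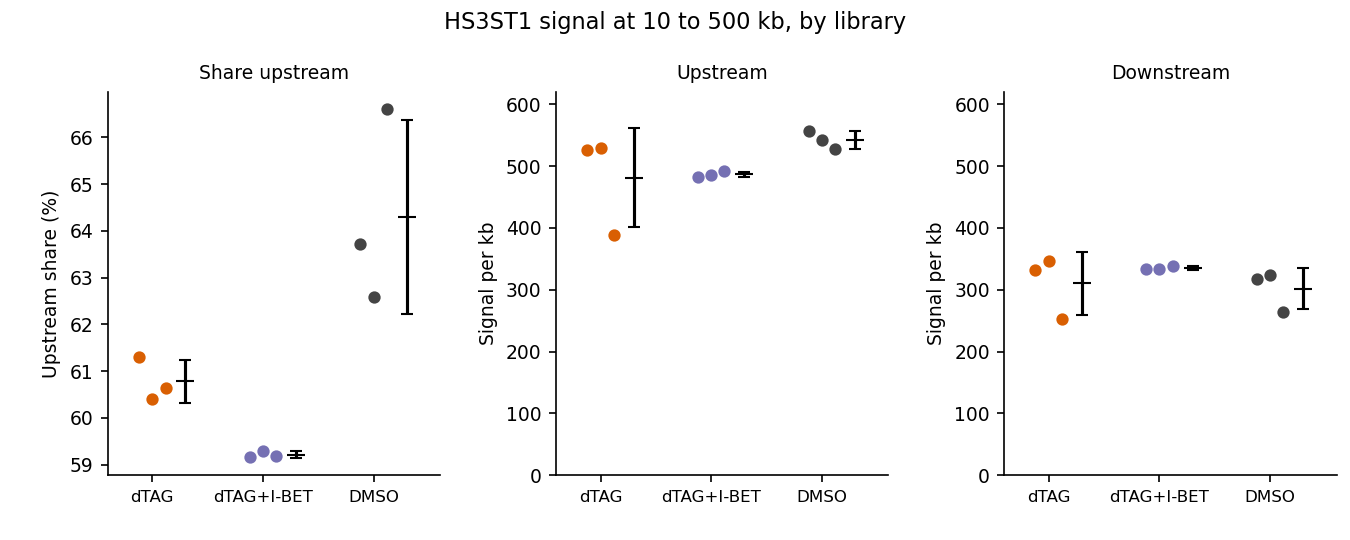
Share of the HS3ST1 signal at 10 to 500 kb that lies upstream, in percent, and signal per kb on the upstream and downstream side, by library (dTAG, dTAG+I-BET and DMSO; points are libraries, bars are mean ± SD, n = 3; the axis of the share does not start at 0). All dTAG and dTAG+I-BET libraries lie at 59.2% to 61.3%, below the DMSO libraries at 62.6% to 66.6%.

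**Figure D3:**
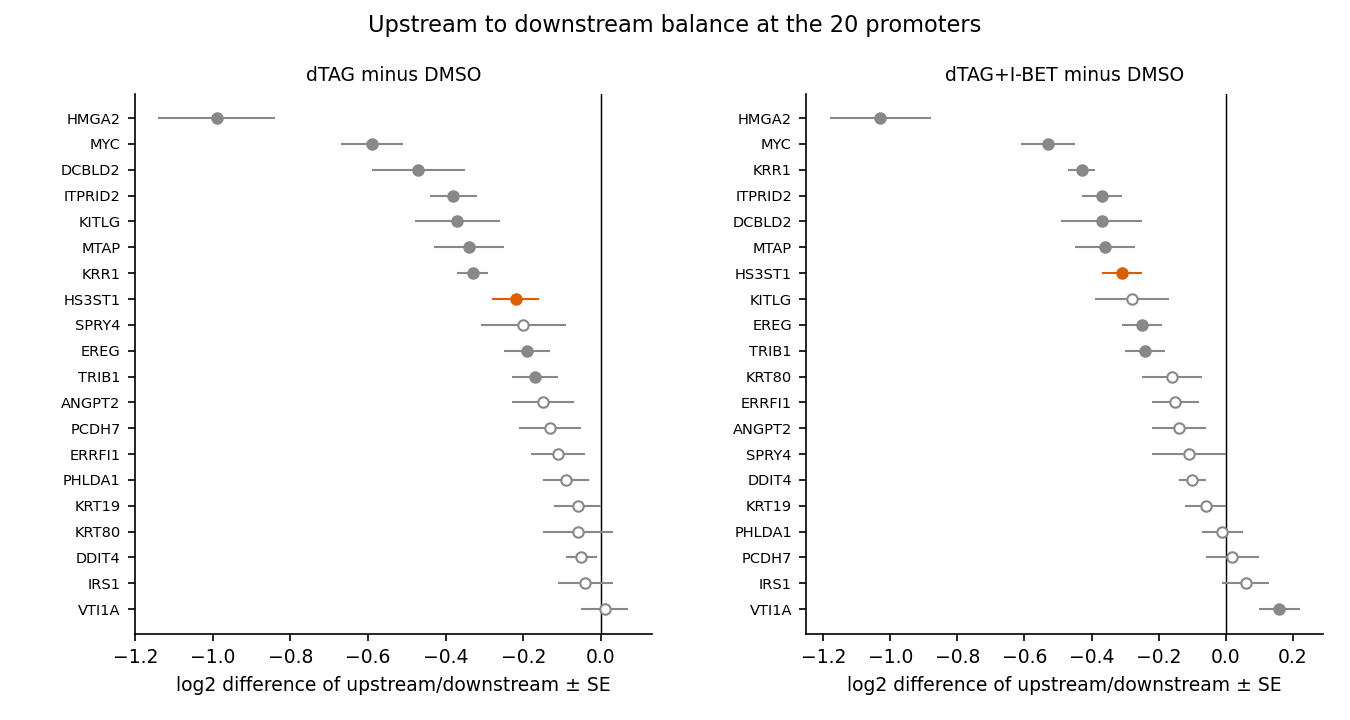
Difference in the log2 upstream to downstream ratio at the 20 captured promoters (± SE from limma), for dTAG minus DMSO (left) and dTAG+I-BET minus DMSO (right). HS3ST1 is in orange, filled points have an adjusted p under 0.05, and HS3ST1 lies at -0.22 and -0.31 among other promoters with differences below 0.

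The 2 sides were then looked at apart. Upstream, the signal was 526, 528 and 389 per kb in the dTAG libraries and 483, 486 and 491 per kb in the dTAG+I-BET libraries, against 557, 542 and 527 per kb in the DMSO libraries. Downstream, it was 332, 346 and 252 per kb in the dTAG libraries and 334, 334 and 339 per kb in the dTAG+I-BET libraries, against 317, 324 and 264 per kb in the DMSO libraries. The dTAG+I-BET libraries were thus below every DMSO library upstream and above every DMSO library downstream. The dTAG and DMSO libraries overlapped on both sides. For single sides, the share of all viewpoints without overlap is not given here. The separation with dTAG+I-BET is therefore not read as particular to HS3ST1.

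By distance, the upstream differences between dTAG and DMSO were alike, with log2 differences of -0.19 at 10 to 50 kb, -0.18 at 50 to 100 kb, -0.19 at 100 to 200 kb and -0.19 at 200 to 500 kb. They depended on dTAG 3: without it they were 0.03, 0.01, -0.07 and -0.08. Downstream, the 4 bands differed by 0.00 to 0.09, and without dTAG 3 by 0.12 to 0.28. Leaving out DMSO 3 instead put all 4 downstream bands below 0 (-0.0966 to -0.0341). No HS3ST1 band passed the test between dTAG and DMSO with or without dTAG 3 (3.12% of the 160 bands of all viewpoints passed, and in 16.9% the groups did not overlap).

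With dTAG+I-BET the upstream differences were -0.01, -0.06, -0.21 and -0.26 in the same order of bands, and whether they differed between bands was not tested. At 10 to 50 kb the signal was 1538, 1529 and 1543 per kb in dTAG+I-BET libraries and 1631, 1515 and 1491 per kb in DMSO libraries (log2 difference -0.01). At 200 to 500 kb it was 293, 296 and 308 per kb in dTAG+I-BET libraries and 360, 362 and 350 per kb in DMSO libraries (log2 difference -0.26, limma adjusted p = 0.146). The groups overlapped in the near band and were apart in the far one, as in 42.5% of the 160 bands of all viewpoints. Of these 160 bands, 7.50% passed the test. The 2 far bands passed where dTAG 3, which adds to the shared estimate of the spread, was left out (100 to 200 kb, -0.21, adjusted p = 0.0109; 200 to 500 kb, -0.26, adjusted p = 0.00262) or where libraries were rescaled to equal totals from 10 to 1000 kb (-0.21, adjusted p = 0.021; -0.25, adjusted p = 0.004). The share of the 160 bands that passed in these settings is not given here, so these calls are not read as particular to HS3ST1. Downstream, the 4 bands differed by 0.12 to 0.22, and none passed the test.

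At the level of single bins, 0 of the 98 HS3ST1 bins passed the test between dTAG and DMSO (limma, adjusted p under 0.05), where 1.58% of the 1960 bins of all viewpoints did. Between dTAG+I-BET and DMSO it was 0 of 98 (4.90% of all bins), and between dTAG+I-BET and dTAG 0 of 98 (0.00% of all bins). At an unadjusted p under 0.05 there were 5, 7 and 3 HS3ST1 bins in these comparisons, where the shares over all bins were 13.3%, 15.8% and 6.22%. With edgeR on the recovered interactions the calls were also 0 in each (2.70%, 5.20% and 0.00% of all bins), with 5, 11 and 3 HS3ST1 bins at an unadjusted p under 0.05 (14.1%, 16.7% and 5.20% of all bins). A 10-kb bin upstream held 33 to 1621 interactions in a library and a bin downstream 27 to 1412, and the median SE of a bin's log2 difference was 0.18.

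The signs of the bins showed the 2 sides again. Between dTAG and DMSO, 47 of the 49 upstream bins were below 0, with a median log2 difference of -0.17, and 17 of the 49 downstream bins were, with a median of 0.03. Over all viewpoints 77.8% of upstream bins and 42.7% of downstream bins were below 0 (medians -0.17 and 0.05). Rescaled to equal totals, 43 of 49 upstream and 9 of 49 downstream HS3ST1 bins were below 0, against 70.6% and 33.8% over all viewpoints.

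Between dTAG+I-BET and DMSO, 42 of the 49 upstream bins were below 0 (median -0.24) and 7 of the 49 downstream bins were (median 0.16), against 59.8% and 35.7% over all viewpoints (medians -0.05 and 0.12). In 23 upstream bins of HS3ST1 (46.9%) every dTAG+I-BET library was below every DMSO library, where this held for 15.4% of upstream bins of all viewpoints; for dTAG against DMSO it was 9 bins (18.4%), where the share over all viewpoints was 16.6%. Downstream, every dTAG+I-BET library was above every DMSO library in 11 bins (22.4%), against 23.8% over all viewpoints.

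**Figure D4:**
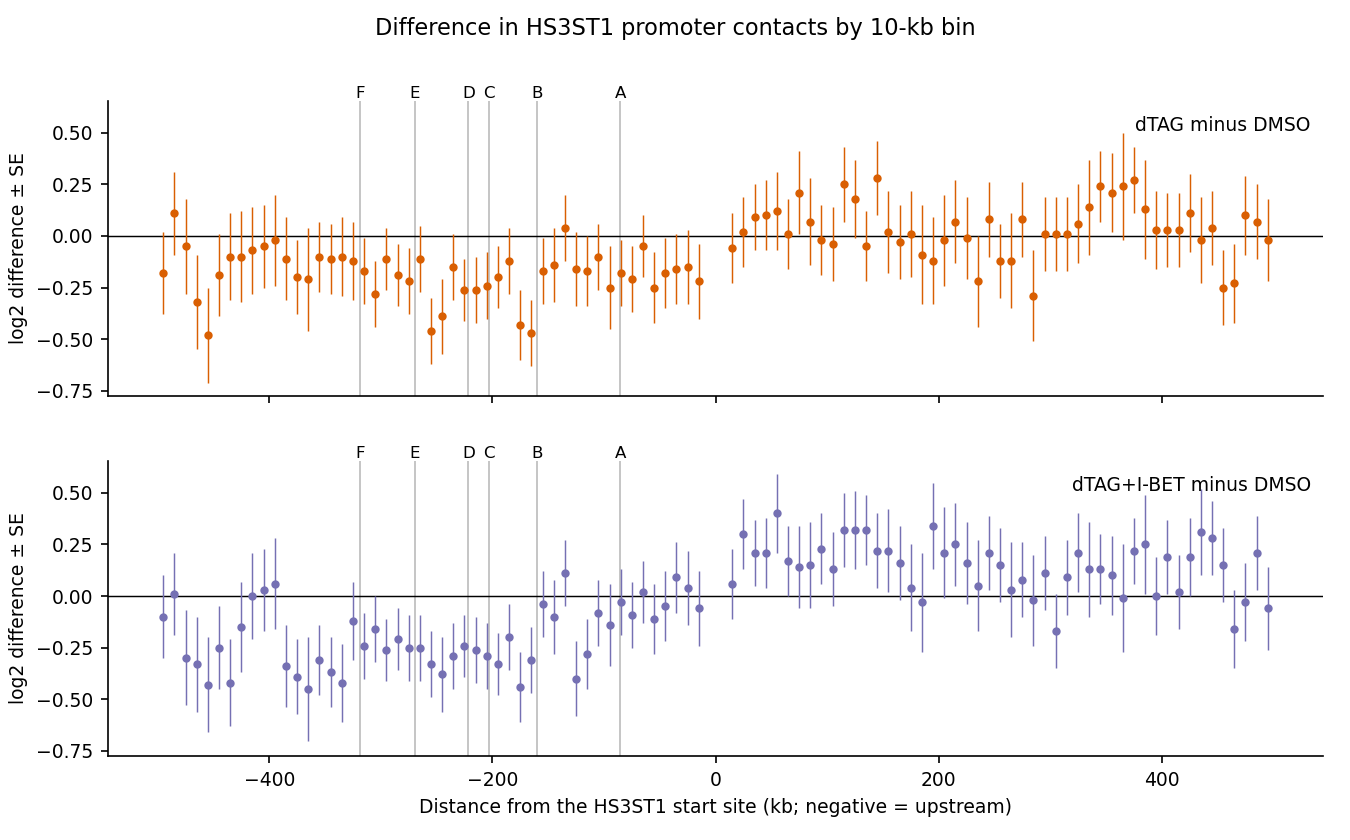
Log2 difference in signal per kb (± SE from limma) of the 98 HS3ST1 bins of 10 kb against distance from the start site in kb (negative is upstream), for dTAG minus DMSO (upper) and dTAG+I-BET minus DMSO (lower), with letters at the 6 cohesin-lost sites. No bin passed the test; 47 and 42 of the 49 upstream bins are below 0.

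The 3 bins with the lowest unadjusted p between dTAG and DMSO were all upstream, and all missed the test. The bin at 250 to 260 kb, between sites D and E, had 385, 366 and 298 per kb in dTAG libraries and 490, 513 and 439 per kb in DMSO libraries (log2 difference -0.46, limma adjusted p = 0.17). The bin at 160 to 170 kb, which holds site B, had 402, 409 and 335 per kb in dTAG libraries and 612, 514 and 463 per kb in DMSO libraries (log2 difference -0.47, adjusted p = 0.171). The bin at 170 to 180 kb followed with -0.43 (adjusted p = 0.217). In each of the 3 bins all dTAG libraries were below all DMSO libraries. Without dTAG 3 the differences were -0.35, -0.38 and -0.40, and none passed.

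The lowest p between dTAG+I-BET and DMSO was that of the bin at 170 to 180 kb upstream, with 321, 335 and 262 per kb in dTAG+I-BET libraries and 414, 403 and 425 per kb in DMSO libraries (log2 difference -0.44, limma adjusted p = 0.175). The bin at 330 to 340 kb (-0.42, adjusted p = 0.262) and the bin at 190 to 200 kb (-0.33, adjusted p = 0.276) came next. The 6 bins from 330 to 390 kb, beyond site F, were chosen after their values were seen: they ranged from -0.45 to -0.31 with dTAG+I-BET and from -0.21 to -0.10 with dTAG. None of them passed the test in either comparison.

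The 3 bins with the lowest unadjusted p between dTAG+I-BET and dTAG were downstream and had higher values in dTAG+I-BET, at 450 to 460 kb (0.40), 130 to 140 kb (0.38) and 190 to 200 kb (0.46), each with an adjusted p of 0.713 in limma. At 450 to 460 kb, for example, the signal was 227, 235 and 232 per kb in dTAG+I-BET libraries and 183, 203 and 145 per kb in dTAG libraries. Of the 6 libraries of these groups, dTAG 3 was the lowest in each of the 3 bins, and without it the differences were 0.26, 0.20 and 0.30.

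The 6 cohesin-lost sites were widened by 5 kb on each side and summed, giving 62.4 kb of sequence. Their signal was 581, 583 and 476 per kb in the dTAG libraries and 548, 537 and 548 per kb in the dTAG+I-BET libraries, against 647, 612 and 618 per kb in the DMSO libraries. All libraries of both treatments were below all DMSO libraries. Libraries did not overlap, in either direction, at 26.3% of the 19 promoters with such sites with dTAG and at 52.6% with dTAG+I-BET.

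The log2 difference was -0.20 with dTAG (95% interval -0.43 to 0.03, limma adjusted p = 0.289) and -0.20 with dTAG+I-BET (-0.43 to 0.03, adjusted p = 0.185), and neither passed the test. Over the 19 promoters, 0.00% passed with dTAG and 5.26% with dTAG+I-BET. Between dTAG+I-BET and dTAG it was 0.00 (-0.23 to 0.23, adjusted p = 0.999). Without dTAG 3 the differences from DMSO were -0.10 with dTAG (adjusted p = 0.22) and -0.20 with dTAG+I-BET, which then passed (adjusted p = 0.00722). Rescaled to equal totals from 10 to 1000 kb, they were -0.14 (adjusted p = 0.00834) and -0.19 (adjusted p = 0.00164), and both passed. The share of the 19 promoters that passed without dTAG 3 or when rescaled is not given here.

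The sequence around the windows was read in the same way. The sequence between the first and the last window had 515, 526 and 390 per kb in dTAG libraries and 459, 472 and 470 per kb in dTAG+I-BET libraries, against 552, 549 and 542 per kb in DMSO libraries (log2 difference -0.21 with dTAG, adjusted p = 0.521, and -0.23 with dTAG+I-BET, adjusted p = 0.629). Without dTAG 3 it was -0.07 with dTAG (adjusted p = 0.242) and -0.23 with dTAG+I-BET, which then passed (adjusted p = 0.00261). The ratio of windows to this sequence was 1.15 ± 0.06 in dTAG, 1.17 ± 0.03 in dTAG+I-BET and 1.14 ± 0.03 in DMSO (SD, n = 3 each). The windows mirrored to the downstream side had log2 differences of 0.02 with dTAG and 0.13 with dTAG+I-BET. Rescaled to equal totals, the sequence between the windows passed the test as well (-0.15 with dTAG, adjusted p = 0.0314, and -0.22 with dTAG+I-BET, adjusted p = 0.00565). Of the 18 promoters with such sequence, 0.00% passed with either treatment when all libraries were used without rescaling. The share that passed without dTAG 3 or when rescaled is not given here.

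HS3ST1 was also set against the other 18 promoters with such windows in each library. Its log2 signal was below their mean by 0.38 ± 0.03 in dTAG, 0.44 ± 0.03 in dTAG+I-BET and 0.33 ± 0.07 in DMSO (SD, n = 3 each). The difference between dTAG and DMSO was -0.05 (two-sided exact permutation test, p = 0.5), and between dTAG+I-BET and DMSO -0.11 (p = 0.1, with no overlap of libraries). With 3 libraries against 3, p = 0.1 is the smallest value this exact permutation test can give.

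Of the single sites, site A had the highest signal and site C the second highest. Site C had 705, 683 and 596 per kb in dTAG libraries and 632, 558 and 656 per kb in dTAG+I-BET libraries, against 857, 680 and 769 per kb in DMSO libraries. The dTAG+I-BET libraries were all below the DMSO libraries at site C (log2 difference -0.32, limma adjusted p = 0.159), and the dTAG libraries overlapped with them (-0.21, adjusted p = 0.366).

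Site B, with 1 match to TGANTCA, had the largest difference with dTAG. Its signal was 413, 421 and 392 per kb in dTAG libraries and 490, 520 and 428 per kb in dTAG+I-BET libraries, against 591, 479 and 522 per kb in DMSO libraries. All dTAG libraries were below all DMSO libraries (log2 difference -0.37, adjusted p = 0.103), whereas the dTAG+I-BET libraries overlapped with DMSO (-0.15, adjusted p = 0.554). Site B was also the site at which all dTAG+I-BET libraries were above all dTAG libraries (0.23, adjusted p = 0.926).

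Site E, with 2 matches, had 634, 673 and 501 per kb in dTAG libraries and 561, 553 and 568 per kb in dTAG+I-BET libraries, against 680, 666 and 681 per kb in DMSO libraries. Only the dTAG+I-BET libraries were all below DMSO there (-0.27, adjusted p = 0.218). Site D had log2 differences of -0.23 with dTAG and -0.24 with dTAG+I-BET, with all libraries of both below DMSO, and site F had -0.06 and -0.21. Site A, the nearest, had 826, 885 and 596 per kb in dTAG libraries and 826, 779 and 864 per kb in dTAG+I-BET libraries, against 836, 878 and 865 per kb in DMSO libraries, so that the groups overlapped (-0.18 and -0.06).

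Without dTAG 3 the differences between dTAG and DMSO were -0.01 at site A, -0.34 at site B, -0.14 at site C, -0.245 at site D, -0.05 at site E and 0.07 at site F, and none passed the test. Those of sites A, C and E were thus smaller by more than 1.5 times, and that of site F had the other sign.

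None of the 6 HS3ST1 sites passed the test with dTAG, where 14.4% of the 153 sites of all viewpoints did, with dTAG+I-BET (16.3%) or between dTAG+I-BET and dTAG (0.00%). Libraries did not overlap at 28.1% of all sites with dTAG, at 41.8% with dTAG+I-BET and at 13.1% between both. With dTAG+I-BET, sites C (-0.32, adjusted p = 0.0468) and E (-0.27, adjusted p = 0.0439) passed when dTAG 3 was left out of the fit. That library is not part of this comparison and enters only through the shared estimate of the spread. The share of the 153 sites that passed without it is not given here, so these calls are not read as particular to HS3ST1. A site window of 10.4 kb held 16 to 33 fragments.

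**Figure D5:**
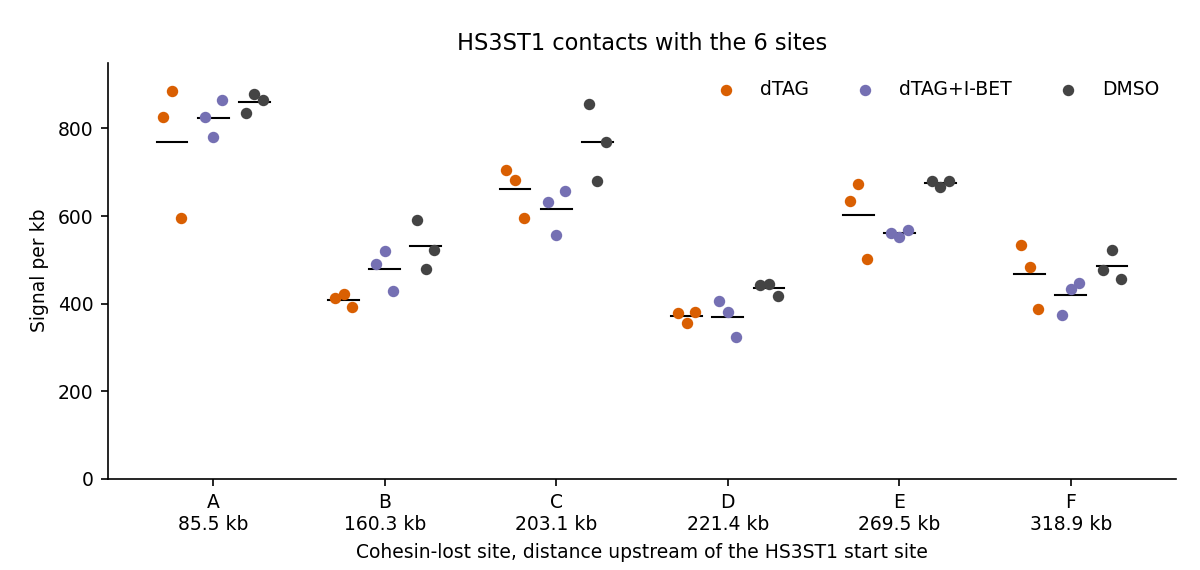
Signal per kb of the HS3ST1 promoter with the 6 cohesin-lost sites (A to F, each widened by 5 kb on both sides), by library, with the distance upstream of the start site in kb. Points are dTAG, dTAG+I-BET and DMSO libraries and horizontal lines are means of 3; at site B all dTAG libraries (392 to 421 per kb) lie below all DMSO libraries (479 to 591 per kb).

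The gene body of HS3ST1, from 10 kb downstream of the start site to the end of the 36.4-kb gene, had 1609, 1560 and 1061 per kb in dTAG libraries and 1489, 1530 and 1607 per kb in dTAG+I-BET libraries, against 1415, 1463 and 1330 per kb in DMSO libraries. The dTAG+I-BET libraries were all above DMSO (log2 difference 0.14, limma adjusted p = 0.572), and so were dTAG 1 and dTAG 2 but not dTAG 3 (-0.02, adjusted p = 0.919). Without dTAG 3 both differences passed, with 0.18 for dTAG (adjusted p = 0.0148) and 0.14 for dTAG+I-BET (adjusted p = 0.0334). With all libraries, 10.0% of the 10 gene bodies tested passed with dTAG and 5 of 10 with dTAG+I-BET, and libraries did not overlap at 20% and 70.0%. The share of gene bodies that passed without dTAG 3 is not given here, so those calls are not read as particular to HS3ST1.

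No protein-coding gene other than HS3ST1 starts within 500 kb. The 8 other annotated starts are those of the microRNA gene MIR572, the pseudogenes RNPS1P1 and RNA5SP156, and the long noncoding RNA genes ENSG00000287778, ENSG00000251152, ENSG00000249631, LINC02360 and ENSG00000248262. Their signal was read over 10 kb centered on the start and was not tested apart from the bins. How often libraries did not overlap at starts near other viewpoints is not given here, so such cases are not read as particular to HS3ST1.

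ENSG00000249631, whose body holds sites C to F, starts 196.1 kb upstream. At its start the signal was 741, 736 and 602 per kb in dTAG libraries and 655, 612 and 573 per kb in dTAG+I-BET libraries, against 766, 817 and 784 per kb in DMSO libraries. All libraries of both treatments were below DMSO there. Most of this sequence is in the bin at 190 to 200 kb, which missed the test (limma adjusted p = 0.603 with dTAG and 0.276 with dTAG+I-BET). LINC02360, which starts 339.9 kb upstream, had 334, 378 and 322 per kb in dTAG libraries and 292, 240 and 356 per kb in dTAG+I-BET libraries, against 376, 408 and 430 per kb in DMSO libraries.

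Nearer to the promoter, ENSG00000251152 (39.7 kb upstream) had 1151, 1077 and 690 per kb in dTAG libraries and 1148, 1082 and 1128 per kb in dTAG+I-BET libraries, against 1154, 1024 and 993 per kb in DMSO libraries, and the groups overlapped. On the downstream side, MIR572 (60.7 kb) averaged 330 per kb in dTAG, 394 in dTAG+I-BET and 353 in DMSO. RNPS1P1 (57.6 kb) averaged 403 per kb in dTAG, 471 in dTAG+I-BET and 377 in DMSO, and there all dTAG+I-BET libraries (430 to 510 per kb) were above all DMSO libraries (321 to 427 per kb).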

How the data were processed

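Libraries were prepared with DpnII and sequenced by the authors, who demultiplexed reads with bcl2fastq 2.17 and, per the methods, used CapCruncher 1, Bowtie2 2.3.5 and Samtools 1.9 with hg38. The deposited values are signal per DpnII fragment, scaled by the authors for each viewpoint and library. All 102057804 values were whole multiples of the signal of 1 interaction (tolerance 0.01), and the recovered interactions gave the depth and the counts for edgeR. How CapCruncher treated PCR duplicates was not examined here, so depth covers counting error only.

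Signal was summed over fragments in 10-kb bins, distance bands, sides and windows that add 5 kb to each side of each cohesin-lost site. The coordinates of these sites and the direction of their SMC1A change came from a supplementary table of the study. Sums were divided by length and tested as log2 of the value plus a pseudocount of 1 with limma 3.58.1 (R 4.3.3). Each fit covered the same regions of all 20 viewpoints and all 9 libraries, with Benjamini-Hochberg adjustment and a threshold of 0.05. Fragments within 10 kb of the start site were left out. The balance was tested as a log2 ratio without a pseudocount. Named in the text were the bins called or, with none called, the 3 with the lowest unadjusted p in each comparison, all cohesin-lost sites and annotated start sites within 500 kb, the nearest protein-coding gene on each side, and the 5 bins with the highest signal relative to the other viewpoints. Exact permutation tests over libraries were two-sided. edgeR 4.0.16 on interactions, other window and bin sizes, other pseudocounts, rescaling, the 2 groups alone, a replicate block and leaving out each library were alternatives. Deviations of same-numbered dTAG and DMSO libraries correlated at 0.14 to 0.18, and those of different number at -0.13 to -0.02. The labels give no pairing, and whether these libraries were paired was not tested. The fits of the 10-kb bins between dTAG and DMSO were tried on simulated counts. No simulated data were fitted for the other regions or comparisons. The regions and lists were chosen with earlier results of these data known.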

Additional observations from a re-analysis of the deposited data

How the results depend on the processing

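The balance and the bin counts kept their calls under most alternatives. For the balance between dTAG and DMSO, the call was lost with the 2 groups alone (-0.218, adjusted p = 0.0667) and without dTAG 2 (adjusted p = 0.0657), and the values without 1 library ranged from -0.272 to -0.145. For the windows, rescaling to equal totals gave -0.142 with dTAG and -0.192 with dTAG+I-BET, the 2 groups alone gave -0.20 with dTAG+I-BET (adjusted p = 0.0144), and values without 1 library ranged from -0.216 to -0.176 with dTAG+I-BET. Between dTAG+I-BET and dTAG, the windows turned below 0 when rescaled (-0.0502), with edgeR (-0.0135) and with 2.5 kb on each side (-0.0384), and ranged from -0.0971 to 0.0499 without 1 library. With dTAG+I-BET, 2 sites and 2 bands passed when rescaled, and 0 to 2 of each without 1 library. Shares of calls over all viewpoints are not given here for fits that were rescaled or left out a library or group. With a replicate block, the balance was -0.218 with dTAG (adjusted p = 0.0212) and -0.312 with dTAG+I-BET (adjusted p = 0.00471), and no call of the balance, windows, sites, bands or bins changed. Same-numbered libraries of dTAG+I-BET and the other groups correlated at -0.05 to 0.08, and the labels give no pairing for them either.

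Leaving out 1 library turned the direction of several values that had not passed. With dTAG these were site F (-0.163 to 0.0688), the upstream bands at 10 to 50 kb (-0.318 to 0.0288) and 50 to 100 kb (-0.273 to 0.00503), the downstream bands at 10 to 50 kb (-0.10 to 0.186), 50 to 100 kb (-0.0404 to 0.275), 100 to 200 kb (-0.0966 to 0.204) and 200 to 500 kb (-0.065 to 0.122), the mirrored windows (-0.116 to 0.203), all other sequence (-0.177 to 0.054) and the gene body (-0.124 to 0.176). With dTAG+I-BET against DMSO they were the upstream band at 10 to 50 kb (-0.0325 to 0.0322) and all other sequence (-0.0693 to 0.00627). Against dTAG they were site A (-0.0555 to 0.229) and site D (-0.0844 to 0.0777). Rescaling turned the downstream band at 10 to 50 kb (0.0572) and the gene body (0.0419) with dTAG and the upstream band at 10 to 50 kb with dTAG+I-BET (0.000825). Leaving out 1 library of the comparison with other viewpoints, chosen after seeing the data as were the alternatives for named bins, gave -0.0238 to 0.136 for the balance with dTAG, -0.138 to 0.0219 with dTAG+I-BET and -0.0718 to -0.00373 for the windows with dTAG. The cause of these changes was not tested. Bins held as few as 27 interactions, which limits what a single bin can show.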

Other observations

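Between 500 and 1000 kb the HS3ST1 contacts lay mostly downstream. At 500 to 1000 kb the downstream side, toward CLNK, had 244, 229 and 239 per kb in dTAG libraries and 244, 250 and 249 per kb in dTAG+I-BET libraries, against 227, 214 and 243 per kb in DMSO libraries. The upstream side had 77.9 to 88.8 per kb over the 9 libraries. The downstream to upstream ratio was 2.91, 2.83 and 2.70 in dTAG libraries and 3.08, 3.21 and 3.15 in dTAG+I-BET libraries, against 2.80, 2.62 and 2.74 in DMSO libraries, and all dTAG+I-BET libraries were above all others. Farther out, up to 2 Mb, both sides were near each other (ratio 0.86 to 1.24).

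The nearest protein-coding gene, CLNK, an adaptor of immunoreceptor signaling, starts 744.8 kb downstream. Its start had 273, 232 and 265 per kb in dTAG libraries and 218, 245 and 237 per kb in dTAG+I-BET libraries, against 211, 175 and 236 per kb in DMSO libraries, and the groups overlapped. RAB28, a small GTPase gene that starts 2054.8 kb upstream, had 68.4, 42.6 and 88.2 per kb in dTAG libraries and 64.6, 67.9 and 84.0 per kb in dTAG+I-BET libraries, against 37.9, 54.6 and 80.2 per kb in DMSO libraries. These values lie outside the 500 kb compared above and were not tested across viewpoints.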
